A study of Mus musculus with 16 samples.

Results

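The glutathione transferase genes Gsta2, Gsta3, Gsta4, Gstm1, Gstm2, Gstm5, Gsto1, Gstp1, Gstt1 and Mgst1 were followed in mouse hepatic stellate cells, the retinoid-storing pericytes of the liver that turn into matrix-producing myofibroblasts. They are 10 of the 18193 genes that the platform annotation names alone on at least 1 probe set, a set of short oligonucleotides that reports a transcript. Where a gene had several such probe sets, the one brightest on average across all 16 arrays was kept, a choice that does not use the groups. All 10 were among the 7823 genes tested, which reached log2 5 on 2 arrays or more. Gsta2 and Gsta3 met this level on every quiescent, bile duct ligation and CCl4 array and on none of the culture or coculture arrays.

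The arrays held stellate cells of male Balb/c mice aged 8 to 10 weeks, purified by density centrifugation. According to the labels' protocols, macrophages were then removed magnetically through their surface marker F4/80. In the coculture group (2 arrays), cells spent 5 days in medium with 10% serum while sharing it with hepatic macrophages (Kupffer cells) across transwell inserts, without contact. In the culture group (3 arrays) they were kept for 5 days in the same serum medium on plastic without macrophages. Cells of the bile duct ligation group (3 arrays) came from mice whose common bile duct had been tied for 15 days, and those of the CCl4 group (3 arrays) from mice given 4 intraperitoneal injections of the liver toxin carbon tetrachloride at 0.5 µl per g body weight. Both kinds of injured cells, and the quiescent cells of normal mice (5 arrays), were lysed after 24 h on the plate. Against quiescent cells, culture and coculture therefore differ in time on the plate as well as in treatment, and these cannot be told apart. The design text gives coculture 3 arrays, of which 1 was not analysed here. Whether replicates are separate mice is not given in the labels, and the p-values then cover only sample-to-sample spread, which may be technical.

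Glutathione transferases join the tripeptide glutathione to electrophiles, such as epoxides, quinones and the aldehydes of oxidised lipids, so that the products can be exported. The soluble enzymes fall into classes with Greek names, here alpha (Gsta), mu (Gstm), pi (Gstp), theta (Gstt) and omega (Gsto), and Mgst1 encodes an unrelated enzyme of intracellular membranes. Several of the genes are known targets of NRF2 (gene Nfe2l2), a transcription factor released by electrophiles that binds antioxidant response elements.

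Promoter sequences are shown for the alpha genes Gsta2 and Gsta3 and the pi gene Gstp1, which fell in both cultures, and for the theta gene Gstt1, which rose in culture. They are RefSeq sequences of build GRCm38.p6, 5′ to 3′ on the gene's strand, with 250 bases before the annotated start and 50 from it on. The windows are chr9:78347096-78347395 (minus strand) for Gsta2, chr1:21240335-21240634 (plus strand) for Gsta3, chr19:4037863-4038162 (minus strand) for Gstp1 and chr10:75797682-75797981 (minus strand) for Gstt1. Capitals mark every match, on either strand, to the AP-1 element TGACTCA or to TGANNNNGC. The latter, called the core below, is a loose form of the antioxidant response element core, so a match need not be such an element.
Gsta2: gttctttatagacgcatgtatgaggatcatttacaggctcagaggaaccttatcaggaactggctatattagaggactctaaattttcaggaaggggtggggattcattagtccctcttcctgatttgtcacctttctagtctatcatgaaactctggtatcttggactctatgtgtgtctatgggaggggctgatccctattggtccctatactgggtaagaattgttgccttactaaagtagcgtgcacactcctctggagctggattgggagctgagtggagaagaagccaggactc
Gsta3: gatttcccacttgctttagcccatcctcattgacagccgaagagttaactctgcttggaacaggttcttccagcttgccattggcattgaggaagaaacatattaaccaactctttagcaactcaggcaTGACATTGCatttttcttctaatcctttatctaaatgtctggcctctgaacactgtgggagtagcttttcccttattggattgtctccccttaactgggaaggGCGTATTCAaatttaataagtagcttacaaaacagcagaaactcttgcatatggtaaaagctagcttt
Gstp1: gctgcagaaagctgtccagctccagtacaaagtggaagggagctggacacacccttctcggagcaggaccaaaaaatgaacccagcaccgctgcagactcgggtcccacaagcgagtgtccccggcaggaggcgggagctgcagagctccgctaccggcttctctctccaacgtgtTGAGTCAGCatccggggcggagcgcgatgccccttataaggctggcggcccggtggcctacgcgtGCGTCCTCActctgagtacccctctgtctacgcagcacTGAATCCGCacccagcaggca
Gstt1: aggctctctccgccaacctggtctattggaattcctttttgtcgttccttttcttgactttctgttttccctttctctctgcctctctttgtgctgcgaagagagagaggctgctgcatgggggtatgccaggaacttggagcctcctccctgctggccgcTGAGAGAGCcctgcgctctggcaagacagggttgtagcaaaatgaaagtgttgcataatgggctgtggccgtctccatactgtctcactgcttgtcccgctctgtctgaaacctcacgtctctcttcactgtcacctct
The window of Gsta2 holds no match to either motif. That of Gsta3 holds 2 core matches, and that of Gstt1 holds 1. Gstp1 has 3 core matches, of which TGAGTCAGC, whose first base lies 74 bases before the start, also contains the AP-1 element on the opposite strand. Such matches are common: 41.3% of the 32851 promoter windows hold the core and 5.2% the AP-1 element. RefSeq promoters were found for 9 of the 10 genes, the exception being Gsta4, which also fell in both cultures. Among those not shown, Gstm5 has 2 core matches and 1 AP-1 match. A window of Mgst1 holds 1 core match and its other window none. The windows of Gstm1, Gstm2 and Gsto1 hold no match to either motif. Elements outside these windows were not sought.

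Of 10 stellate lineage markers, 10 averaged at least log2 5 in coculture, culture and quiescent cells and 9 after each injury. The exception was Lrat, which esterifies retinol for storage. Lrat averaged 7.98 in coculture, 9.75 in culture, 4.78 after bile duct ligation, 3.81 after CCl4 and 5.61 in quiescent cells. Its arrays ran from 3.02 to 7.77 after bile duct ligation and from 3.22 to 6.70 in quiescent cells. Colec11 averaged 6.06 in coculture, 10.31 in culture and 8.22 in quiescent cells, with 3.11 as its lowest array. Levels are on a log2 scale, in which 1 unit is a 2-fold difference, and the median probe set of an array lay between 2.00 and 2.06. No detection calls were used, so levels near this median cannot be told from background, and a difference that reaches it depends on the background estimate. Hepatocytes are rich in glutathione transferases, and their markers differed between the groups. The summed level of 16 hepatocyte markers (log2 of the summed linear values) ran from 5.68 to 5.88 in coculture, 5.60 to 6.07 in culture, 8.09 to 9.50 after bile duct ligation, 8.80 to 11.67 after CCl4 and 5.63 to 6.22 in quiescent cells. Of the 16, 2 averaged at least log2 5 after bile duct ligation, 5 after CCl4 and 0 in the other groups, and 8, 10 and 0 averaged above log2 3. Besides Alb they were Hpx after bile duct ligation (5.58) and Ttr (6.76), Hpx (5.74), Fgb (5.27) and Apoa1 (5.07) after CCl4. Cps1 and Cyp2e1 averaged at most 1.06 and 1.92 in any group. The means of Alb (albumin) were 8.25 after bile duct ligation, 9.33 after CCl4 and 2.75 in quiescent cells, and CCl4 replicate 3 had the highest value, 10.79. Mesothelial markers moved with the injuries too, the summed level of 8 running from 8.00 to 8.74 after bile duct ligation, 8.69 to 11.11 after CCl4 and 4.62 to 4.98 in quiescent cells, with 2, 3 and 0 averaging at least log2 5. They were the keratins Krt8 (6.70, 7.78 and 1.89) and Krt18 (7.27, 8.54 and 2.06), which other epithelia also express, and Lrrn4 after CCl4 (6.13). In the same order Wt1 averaged 4.39, 4.67 and 2.14 and Upk1b 2.43, 4.62 and 1.39, and 4, 5 and 0 of the 8 averaged above log2 3. Msln, Upk3b and Gpm6a averaged at most 2.85, 2.27 and 2.36. Of 5 cholangiocyte markers only Krt19 reached log2 5, in coculture (5.60, against 1.58 in quiescent cells). The summed level of 14 macrophage markers ran from 7.01 to 8.86 after bile duct ligation, 7.47 to 8.50 after CCl4 and 6.80 to 8.06 in quiescent cells. In that order 6, 3 and 2 of them averaged above log2 3, and 2, 2 and 1 at least log2 5. Lyz2 averaged 5.91, 5.46 and 2.02, and Cd68 6.34, 7.06 and 7.02. In the same order Cd5l averaged 3.27, 2.29 and 1.20, Tyrobp 3.21, 2.16 and 1.46, and Vsig4 2.79, 2.48 and 1.31. C1qb averaged 3.10, 2.53 and 2.25. Adgre1 (F4/80), at most 2.23 in any group, and Cd68 were not higher after bile duct ligation than in quiescent cells. The part of macrophage RNA in the injured samples was not tested.

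**Figure D1:**
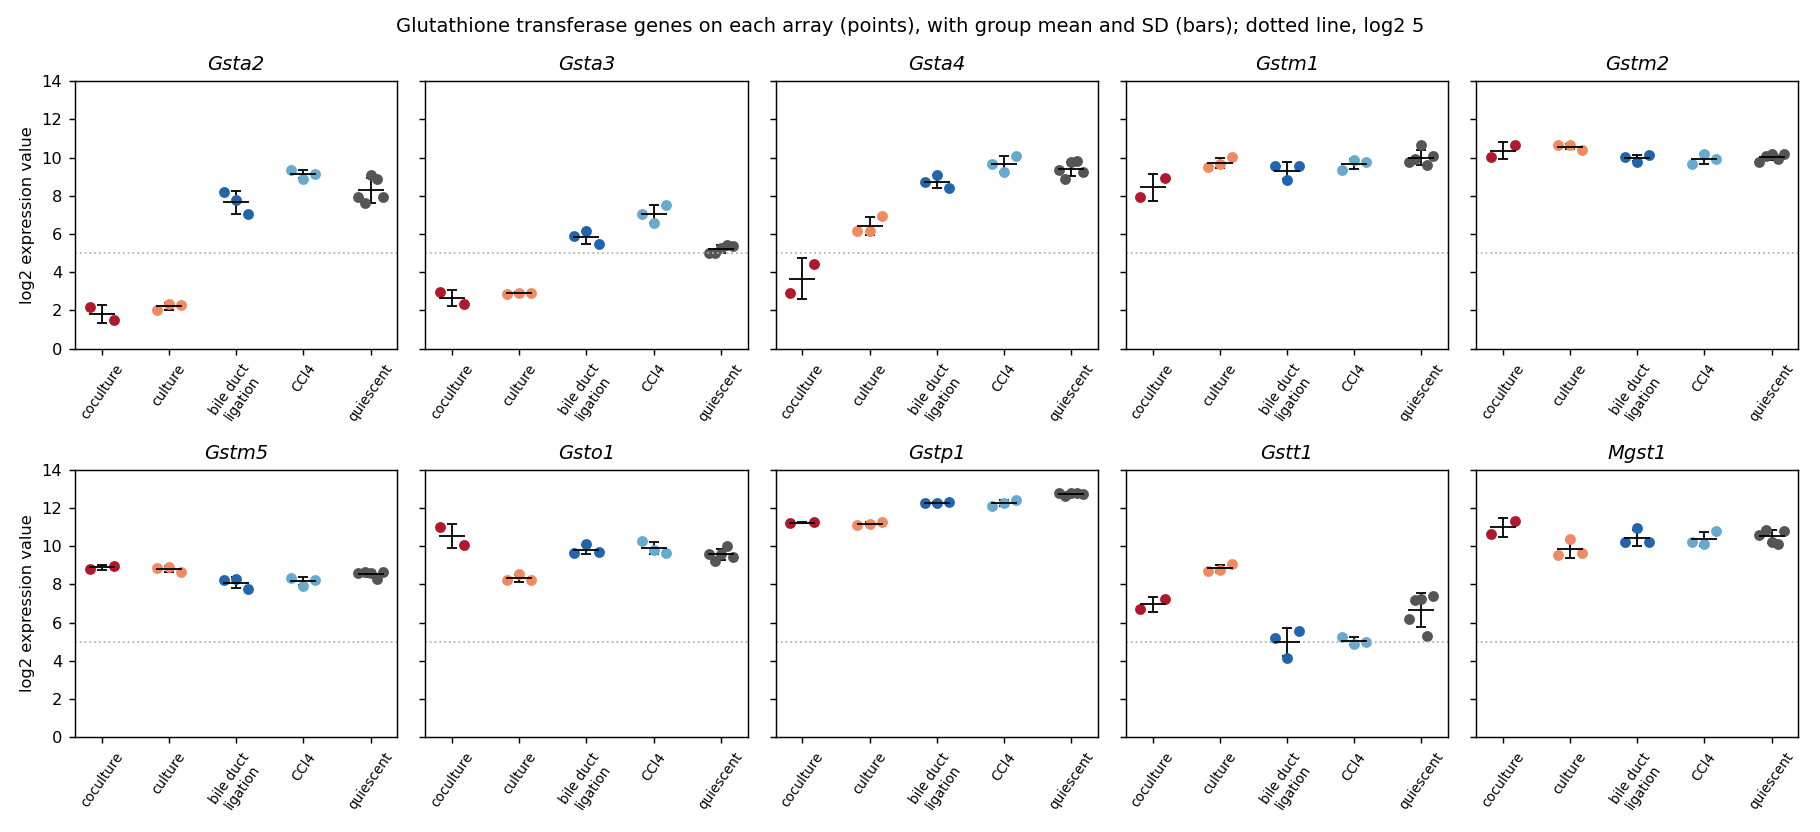
Log2 expression value (vertical axis) of each glutathione transferase gene in 5 groups, with a point per array and bars for the group mean and SD; the dotted line is log2 5. Gsta2 lies at or below 2.34 on every coculture and culture array and at or above 7.03 elsewhere, whereas Gstm2 stays between 9.64 and 10.67 on all arrays.

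In coculture and in culture the alpha genes Gsta2, Gsta3 and Gsta4 and the pi gene Gstp1 were below their quiescent levels, while in culture the theta gene Gstt1 and the mu gene Gstm2 were above theirs. After both injuries Gstp1 and Gstt1 were lower than in quiescent cells, and Gsta3 was higher after CCl4. Gsto1 and Mgst1 were higher in coculture than in culture, and Gsta4, Gstm1 and Gstt1 were lower.

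Gsta2, an alpha enzyme that also reduces lipid hydroperoxides, had 2.17 and 1.49 in coculture and 2.01, 2.34 and 2.31 in culture, against 7.92, 7.61, 9.09, 8.89 and 7.95 in quiescent cells. All 5 cultured arrays were thus near the background level, and the groups were far apart. The differences were -6.46 ± 0.38 in coculture (log2 difference ± SE, adjusted p = 3.22e-08, limma) and -6.07 ± 0.33 in culture (adjusted p = 9.84e-09). Among the 7823 genes Gsta2 ranked 5 by the moderated F statistic for any difference among the groups, and Gstp1 ranked 7. After bile duct ligation it had 8.22, 7.77 and 7.03, and after CCl4 9.35, 8.90 and 9.13. Both sets overlapped the quiescent arrays, and neither difference was called (-0.62 ± 0.33, adjusted p = 0.231, and 0.84 ± 0.33, adjusted p = 0.0867). The CCl4 difference was called without quiescent replicate 3 (1.04) or 4 (0.98) and with array weights (0.80). The related gene Gsta1 is close to Gsta2 in sequence, and the files do not show whether the probe set kept for Gsta2 also binds it.

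Gsta3, whose mouse enzyme is known for detoxifying aflatoxin epoxide, had 2.96 and 2.34 in coculture and 2.85, 2.93 and 2.91 in culture, against 5.03, 5.01, 5.25, 5.42 and 5.39 in quiescent cells. These cultured values also lay near background, with no overlap. It fell by 2.57 ± 0.27 in coculture (adjusted p = 7.29e-06, limma) and fell by 2.32 ± 0.24 in culture (adjusted p = 4.4e-06). After CCl4 it stood at 7.06, 6.55 and 7.53, above all quiescent arrays, a rise of 1.83 ± 0.24 (adjusted p = 8.25e-05). The second Gsta3 probe set averaged 1.89 over all arrays, near background, so the Gsta3 values rest on the kept probe set alone. Bile duct ligation gave 5.87, 6.14 and 5.49, also above every quiescent array, but the difference of 0.61 ± 0.24 was not called (adjusted p = 0.096). CCl4 arrays were all above the ligation arrays, and these all above the quiescent ones. In replicate order the hepatocyte marker sums were 9.50, 8.09 and 8.91 after bile duct ligation and 8.80, 9.58 and 11.67 after CCl4. Quiescent arrays had 5.63 to 6.22. CCl4 replicate 3 was highest in both Gsta3 and this sum. Without CCl4 replicate 3 the rise was 1.59 and still called. The remaining CCl4 arrays were also above every quiescent array in the marker sum, so that fit cannot separate the hepatocyte part. The part of hepatocyte or mesothelial RNA in this rise was not tested.

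Gsta4 encodes the alpha enzyme specialised for 4-hydroxynonenal, an aldehyde of lipid peroxidation. It had 2.90 and 4.41 in coculture and 6.13, 6.13 and 6.94 in culture, against 9.37, 8.87, 9.76, 9.80 and 9.25 in quiescent cells. The 3 states did not overlap, with coculture lowest and culture between. The differences from quiescent cells were -5.76 ± 0.37 in coculture (adjusted p = 7.3e-08) and -3.01 ± 0.33 in culture (adjusted p = 6.75e-06). Coculture was lower than culture by a difference of -2.75 ± 0.41 (adjusted p = 0.0004), which was -1.99 without coculture replicate 2 and -3.50 without coculture replicate 3. Coculture replicate 2, at 2.90, lies in the range called near background for Gsta3, so the sizes of these coculture differences depend on the background estimate. Gsta2 and Gsta3 were near background in both cultures, where a further fall could not show. Bile duct ligation (8.74, 9.08 and 8.39) and CCl4 (9.68, 9.22 and 10.09) overlapped quiescent cells, and neither difference was called (-0.67 ± 0.33 and 0.25 ± 0.33).

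**Figure D2:**
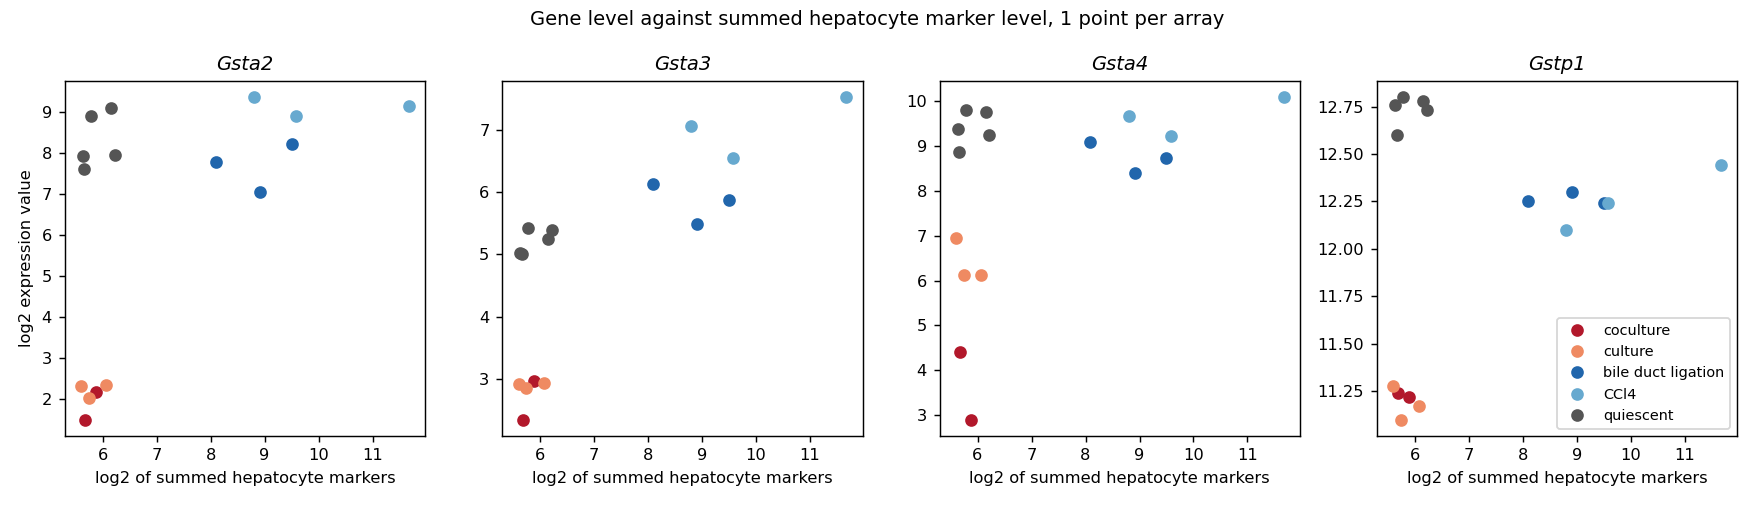
Log2 expression value of Gsta2, Gsta3, Gsta4 and Gstp1 (vertical axes, each with its own range) against the log2 summed level of 16 hepatocyte markers (horizontal axis), with a point per array coloured by group. Coculture, culture and quiescent arrays share marker sums of 5.60 to 6.22, at the floor of this sum. There the quiescent arrays lie above the cultured ones in all 4 genes. The CCl4 array with the marker sum of 11.67 has the highest Gsta3.

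Hepatocyte marker sums were alike in cultured and quiescent cells, where none of the 16 markers averaged above log2 3, while the alpha genes differed. At this floor a small difference in hepatocyte RNA could not show, and its part was not tested. The coculture, culture and quiescent arrays lay within 5.60 to 6.22, where Gsta2 ran from 1.49 to 2.34 in the cultured arrays and from 7.61 to 9.09 in the quiescent ones. Fewer cells that express a gene and less of its RNA per cell cannot be told apart in these bulk samples.

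Gstp1 encodes the pi enzyme, which is also known to bind the stress kinase JNK. It had 11.22 and 11.24 in coculture, 11.10, 11.17 and 11.28 in culture, 12.24, 12.25 and 12.30 after bile duct ligation, 12.10, 12.24 and 12.44 after CCl4, and 12.76, 12.60, 12.78, 12.80 and 12.73 in quiescent cells. Quiescent cells were above all others, the injured cells came next and the cultured cells were lowest, with no overlap between these levels. Gstp1 was 2.84-fold lower in coculture (log2 SE 0.09, adjusted p = 3.22e-08, limma) and 2.93-fold lower in culture (log2 SE 0.08, adjusted p = 7.54e-09). It fell by 0.47 ± 0.08 after each injury (adjusted p = 0.000777 after bile duct ligation and 0.000667 after CCl4). Coculture and culture overlapped (0.05 ± 0.10, adjusted p = 0.802), as did the injuries (0.01 ± 0.09, adjusted p = 0.989). Mouse Gstp2 is a close copy of Gstp1, and the files do not show whether the probe set binds both.

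The mu genes were between 7.78 and 10.67 on all arrays. Gstm1, whose enzyme acts on epoxides and quinones, had 7.93 and 8.95 in coculture, against 9.48, 9.66 and 10.01 in culture and 9.78, 9.93, 10.64, 9.61 and 10.06 in quiescent cells. The coculture arrays were below both of these groups. It fell by 1.56 ± 0.30 against quiescent cells (adjusted p = 0.00101) and fell by 1.28 ± 0.33 against culture (adjusted p = 0.0168). The call against culture was lost without coculture replicate 2 (-0.77) or culture replicate 3 (-1.13). Culture itself did not differ detectably from quiescent cells (-0.28 ± 0.26, adjusted p = 0.405). The kept probe set is marked on the platform as able to cross-hybridise, but a second Gstm1 probe set without that mark gave -1.41 ± 0.28 in coculture against quiescent cells and -1.16 ± 0.31 against culture. A further cross-hybridising probe set gave -1.44 ± 0.36 and -1.06 ± 0.39, the second of which was not called (adjusted p = 0.0829).

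Gstm2 was between 10.40 and 10.67 in culture, against 9.78 to 10.19 in quiescent cells, a rise of 0.55 ± 0.15 (adjusted p = 0.0104, limma). In coculture it had 10.05 and 10.67 and was not called (0.34 ± 0.18, adjusted p = 0.146), although it was without coculture replicate 2 (0.64). Gstm5 had 8.23, 8.27 and 7.78 after bile duct ligation, against 8.59, 8.66, 8.59, 8.27 and 8.65 in quiescent cells. The groups met at 8.27, and the fall of 0.46 ± 0.15 was close to the threshold (adjusted p = 0.0441). That call was lost under 15 of 26 other settings, among them the fits without quiescent replicate 1, 2, 3 or 5 (adjusted p = 0.0712 to 0.0866), without bile duct ligation replicate 1 (0.0695) or 3 (0.231, at -0.30), and with each array centred (0.0828). Against the mean of both injuries, Gstm2 and Gstm5 were higher in culture by 0.63 ± 0.15 and 0.67 ± 0.14, with no overlap of arrays (adjusted p = 0.00281 and 0.00122). After bile duct ligation Gstm1 lay below all quiescent arrays without being called (-0.69 ± 0.26, adjusted p = 0.0858), and after CCl4 none of the mu genes was called, with Gstm5 at -0.38 ± 0.15 (adjusted p = 0.0766). The Gstm5 difference after CCl4 was called without quiescent replicate 4 (-0.45) and with array weights (-0.49).

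Gstt1, the theta enzyme that acts on small halogenated compounds such as dichloromethane, had 8.69, 8.75 and 9.07 in culture, against 6.18, 7.20, 7.24, 5.32 and 7.39 in quiescent cells, so that each cultured array exceeded each quiescent array. The rise was 2.17 ± 0.41 (adjusted p = 0.000738). In coculture it had 6.69 and 7.23, within the quiescent range and not called against it (0.29 ± 0.47, adjusted p = 0.656). Coculture was lower than culture by a difference of -1.88 ± 0.52 (adjusted p = 0.0231), and this call was lost without coculture replicate 2 (-1.61), coculture replicate 3 (-2.15) or culture replicate 3 (-1.76). Levels were also low after injury, at 5.22, 4.17 and 5.56 after bile duct ligation and 5.26, 4.87 and 5.00 after CCl4. Gstt1 fell by 1.68 ± 0.41 (adjusted p = 0.0108) and fell by 1.62 ± 0.41 (adjusted p = 0.0117) against quiescent cells, whose replicate 4 (5.32) overlapped the ligation arrays only. The ligation call was lost without ligation replicate 2 (-1.27, adjusted p = 0.0773) or with the compared arrays alone (adjusted p = 0.0506).

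Gsto1 encodes the omega enzyme, which reduces dehydroascorbate and protein thiol adducts. Its level was 10.99 and 10.08 in coculture and 8.21, 8.54 and 8.24 in culture, against 9.59, 9.22, 9.60, 10.01 and 9.45 in quiescent cells. Culture lay below all quiescent arrays and coculture above all of them. Gsto1 fell by 1.24 ± 0.21 in culture (adjusted p = 0.000344, limma) and rose by 0.96 ± 0.25 in coculture (adjusted p = 0.00658). The rise was not called without coculture replicate 2 (0.50, adjusted p = 0.195). Set against culture, coculture was higher by 2.20 ± 0.27 (adjusted p = 9.57e-05), and the value was 1.75 without coculture replicate 2 and 2.66 without coculture replicate 3. As for Gstm1, the kept probe set is marked as able to cross-hybridise. The other Gsto1 probe set, without that mark, gave 2.63 ± 0.35 for the same difference. Against quiescent cells it gave 1.14 ± 0.32 in coculture and -1.50 ± 0.28 in culture. Neither injury changed Gsto1 detectably (0.24 ± 0.21 after bile duct ligation and 0.33 ± 0.21 after CCl4).

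Mgst1, a membrane enzyme of the endoplasmic reticulum and mitochondria, had 10.63 and 11.34 in coculture, against 9.55, 10.40 and 9.64 in culture. The higher level in coculture, 1.12 ± 0.32 above culture, was called (adjusted p = 0.0282), but leaving out coculture replicate 3 (0.77, adjusted p = 0.225) ended the call, as did leaving out either of the culture replicates 1 (0.97) and 3 (1.01). The same held with the mean of its probe sets (0.58) and with array weights (0.74). The second Mgst1 probe set was near background on all arrays (1.02 to 1.54), so taking the mean shrinks the difference. Against quiescent cells (10.11 to 10.87) no group was called. In culture the difference was -0.65 ± 0.26 (adjusted p = 0.0547), and it was called under 6 other settings, such as without culture replicate 2 (-0.91). Mgst1 was also the member that did not pass the test for any difference among the 5 groups (adjusted p = 0.0617). The other 9 passed, beside 63.0% of all tested genes.

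The summed level of 14 macrophage markers was 8.27 and 8.29 in coculture, 6.41 to 6.60 in culture and 6.80 to 8.06 in quiescent cells, with 2, 0 and 1 of the 14 averaging at least log2 5. Cd68, a lysosomal gene, had means of 7.82, 3.74 and 7.02 in these groups, and Lyz2, which encodes lysozyme, 5.49, 4.94 and 2.02. Between coculture and culture the sum differed mainly in Cd68, since Adgre1 (1.55 and 1.54), Clec4f (1.67 and 1.70) and Csf1r (3.33 and 3.28) had nearly equal means. The part of macrophage RNA in the differences of Gsto1 and Mgst1 was not tested.

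**Figure D3:**
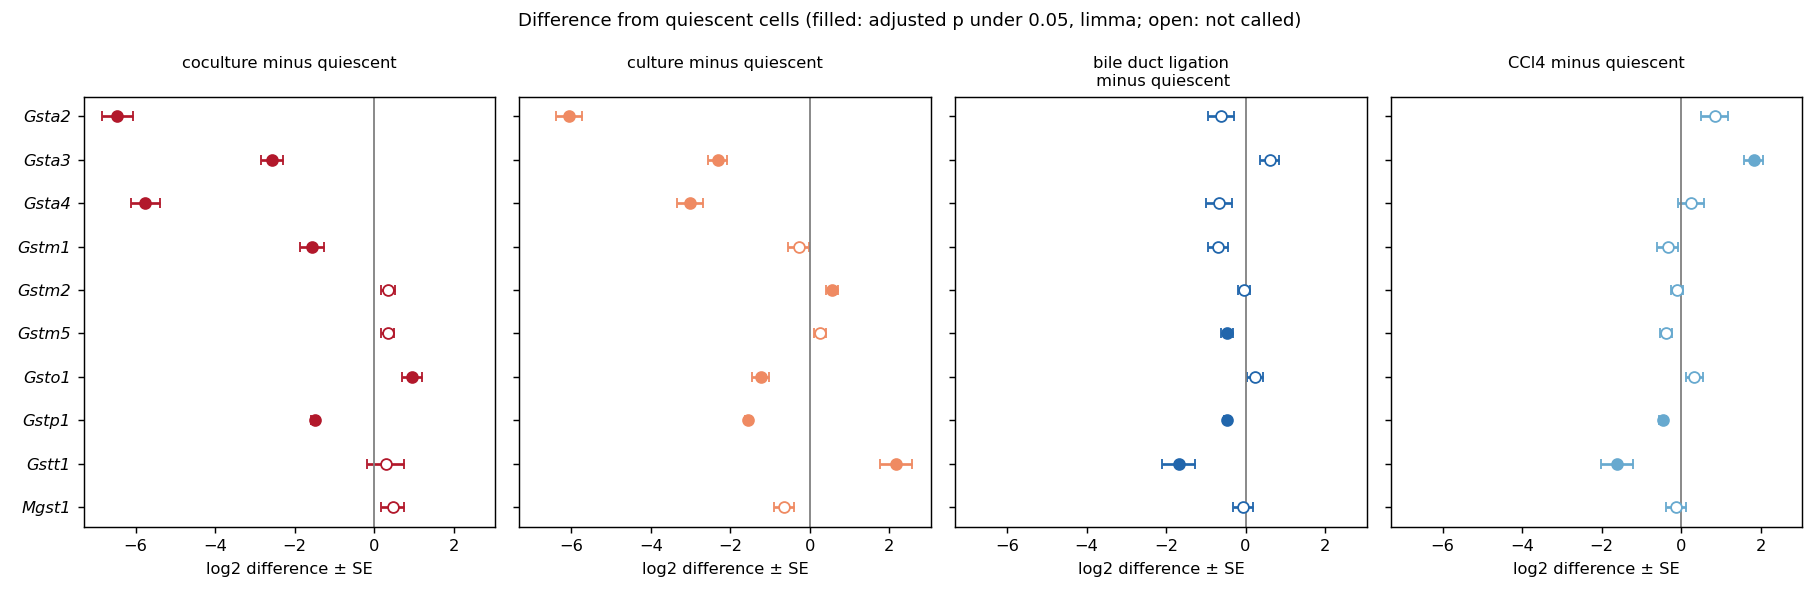
Log2 difference ± SE (horizontal axes) of each gene from quiescent cells in coculture, culture, bile duct ligation and CCl4; filled points passed the limma test at an adjusted p under 0.05 and open points did not. Gsta2, Gsta3, Gsta4 and Gstp1 are filled and left of 0 in both cultures, and Gstp1 and Gstt1 are filled and left of 0 after both injuries.

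By count, coculture against quiescent cells called 6 of the 10 genes, 1 higher and 5 lower, where 38.7% of all tested genes were called (17.8% higher and 20.9% lower). The median difference of the 10 was -0.61, beside -0.04 over all tested genes, and the arrays did not overlap for 7 of the 10 and 46.4% of all tested genes. Culture against quiescent cells called 7, 2 higher and 5 lower, with 42.1% called among all tested genes (18.5% higher and 23.5% lower) and medians of -0.95 and -0.05. Its arrays did not overlap for 7 of the 10 and 39.1% of all tested genes. Bile duct ligation called 3, all lower (Gstm5, Gstp1 and Gstt1), where 16.9% of all tested genes were called, 8.03% higher and 8.83% lower, with medians of -0.46 and -0.05. There 3 of the 10 and 22.6% of all tested genes did not overlap. CCl4 called 3 (Gsta3 higher, Gstp1 and Gstt1 lower) where 22.0% of all tested genes were called, 9.51% higher and 12.5% lower, with medians of -0.12 and -0.05. There 3 of the 10 and 25.5% of all tested genes did not overlap. These 4 comparisons share the quiescent arrays. Culture against the mean of both injuries, which differ from it in time on the plate as well, called 8, 3 higher and 5 lower, where 50.9% of all tested genes were called (25.0% higher and 25.9% lower) and 44.6% did not overlap. There Gsta2 was lower by a difference of -6.18 ± 0.32, Gsta3 by -3.54 ± 0.23 and Gsto1 by -1.53 ± 0.21, while Gstt1 was higher by 3.82 ± 0.40.

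**Figure D4:**
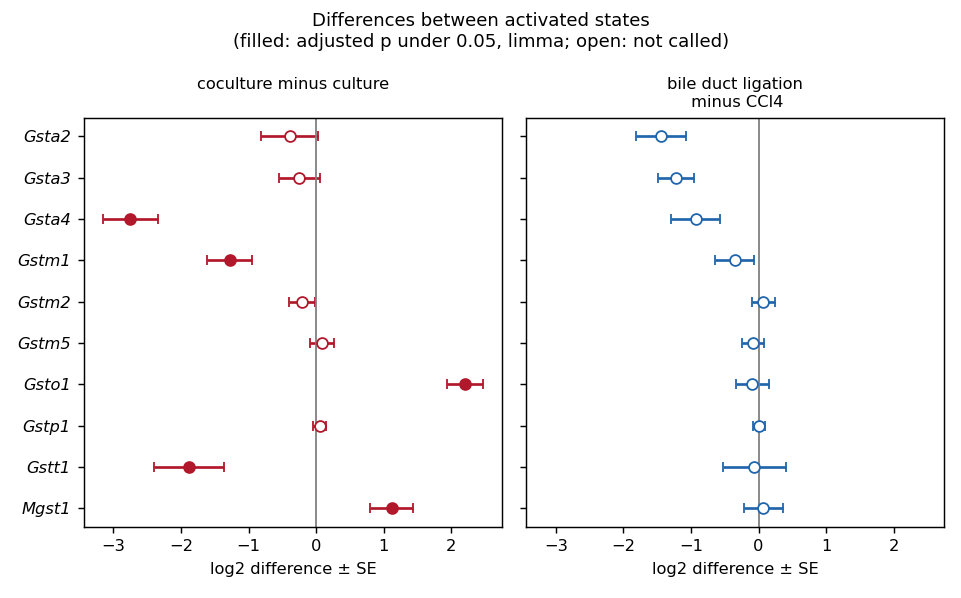
Log2 difference ± SE (horizontal axes) of each gene for coculture minus culture (left) and bile duct ligation minus CCl4 (right); filled points passed the limma test at an adjusted p under 0.05. Gsta4, Gstm1 and Gstt1 are filled left of 0 and Gsto1 and Mgst1 right of 0 in the left panel, and no point is filled in the right panel.

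Adding Kupffer cells called 5 of the 10 genes against culture, 2 higher and 3 lower, where 15.4% of all tested genes were called (8.37% higher and 7.03% lower). The arrays of both sides did not overlap for these 5 genes, nor for 46.2% of all tested genes in this small comparison. Between the injuries limma called 0 of the 10, and 0.166% (13) of all tested genes, 0.0256% higher and 0.141% lower. Unadjusted, 3 had p under 0.05, beside 1099 of the 7823 tested genes, and all were lower after bile duct ligation than after CCl4 with no overlap of arrays, as for 25.3% of all tested genes in either direction. They were the alpha genes Gsta2 (-1.45 ± 0.37, adjusted p = 0.138), Gsta3 (-1.22 ± 0.27, adjusted p = 0.0818) and Gsta4 (-0.93 ± 0.36, adjusted p = 0.268). With array weights Gsta2 and Gsta3 were called (-1.27 and -1.07). Alb (8.25 and 9.33) and Krt18 (7.27 and 8.54) also averaged less after bile duct ligation than after CCl4, and the part of other cell types was not tested.

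Of 19 other glutathione transferase genes, 16 were on the array and 5 were tested. In culture 4 of the 5 were higher and 1 lower than in quiescent cells (42.1% of all tested genes were called), led by the membrane enzyme gene Mgst3 (2.09 ± 0.28, adjusted p = 3.77e-05) and Gstm4 (1.49 ± 0.25, adjusted p = 0.000326). Gstt2 rose by 1.09 ± 0.32, Gstk1, which encodes a mitochondrial and peroxisomal enzyme, by 0.71 ± 0.23, and Gstcd fell by 1.11 ± 0.23. In coculture Gstm4 (1.32 ± 0.29) and Gstk1 (1.17 ± 0.26) were higher and Gstcd (-0.82 ± 0.27) lower, beside 38.7% called. After each injury limma called 0 of the 5, with 1 at an unadjusted p under 0.05, where 30.3% of all tested genes were under it after bile duct ligation and 34.6% after CCl4. Mgst3 was lower in coculture than in culture (-1.30 ± 0.35, adjusted p = 0.0195), opposite in sign to Mgst1.

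The supply and use of glutathione were followed in 24 genes, of which 16 were tested. In coculture 3 were higher and 5 lower than in quiescent cells, and in culture 5 were higher and 7 lower, beside 38.7% and 42.1% of all tested genes called. Gclc and Gclm, the catalytic and modifier subunits of the rate-limiting enzyme of glutathione synthesis, were both lower, Gclc at 7.01 ± 0.16 in coculture and 7.21 ± 0.11 in culture, against 9.30 ± 0.33 in quiescent cells (SD, n = 2, 3 and 5). The differences were -2.29 ± 0.22 and -2.09 ± 0.19 for Gclc and -1.78 ± 0.27 and -1.87 ± 0.24 for Gclm. Abcc1, which exports glutathione conjugates, differed by -2.04 ± 0.30 and -1.82 ± 0.27. The glutathione peroxidase gene Gpx1 rose by 1.00 ± 0.18 in culture (adjusted p = 0.000386), and Gpx7, an endoplasmic reticulum peroxidase, rose by 1.36 ± 0.18 in coculture.

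After bile duct ligation 2 of the 16 were higher and 2 lower (16.9% of all tested genes were called), with Gpx7 up by 0.52 ± 0.16, Gpx8 by 0.47 ± 0.15, Abcc5 at -0.74 ± 0.22 and Gclc at -0.63 ± 0.19. After CCl4 4 were higher and 1 lower, beside 22.0% called. Gpx8 rose by 1.09 ± 0.15 (adjusted p = 9.88e-05), the glutathione synthetase gene Gss by 1.00 ± 0.30 and Ggct, of the glutathione cycle, by 1.18 ± 0.39, while Abcc5 fell by 0.97 ± 0.22. In coculture against culture, where 15.4% of all tested genes were called, 3 were higher and 0 lower, namely Gpx7 (0.91 ± 0.20), Ggct (1.52 ± 0.49) and the glutaredoxin gene Glrx (1.49 ± 0.48). Between the injuries limma called 0 of 16, with 3 at an unadjusted p under 0.05, beside 1099 of the 7823 tested genes.

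Of 30 genes of the electrophile response and xenobiotic metabolism, 19 were tested. In coculture 2 were higher and 7 lower, and in culture 6 were higher and 6 lower, where 38.7% and 42.1% of all tested genes were called. The list moved in both directions. Nqo1, a quinone reductase, stood at 4.86 in coculture and 4.56 in culture, against 7.84 in quiescent cells (-2.97 ± 0.46 and -3.28 ± 0.41). Srxn1, which repairs peroxiredoxins, differed by -3.15 ± 0.29 and -3.33 ± 0.25, and the thioredoxin gene Txn1 by -0.34 ± 0.08 and -0.82 ± 0.07. The transcript of the regulator itself, Nfe2l2, was at 9.85, 10.13 and 10.07 in coculture, culture and quiescent cells. Higher in culture were Cyp1b1 (4.19 ± 0.45) and Aldh1a1 (3.98 ± 0.45), which act on retinoids among other substrates. Cyp1a1 (3.19 ± 0.66), Ephx1 (1.72 ± 0.35) and Pir (0.74 ± 0.27) were also higher there, and Cyp1b1 was higher in coculture too (3.96 ± 0.52). Cbr1, a carbonyl reductase gene, was higher in coculture (0.97 ± 0.24), and Cbr3 and Akr1b8 were called in neither.

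After bile duct ligation 1 of the 19 was higher (Cyp1b1, 4.29 ± 0.45) and 5 were lower, beside 16.9% of all tested genes called. The lower ones were Srxn1 (-0.80 ± 0.25), Nfe2l2 (-0.50 ± 0.15), the microsomal epoxide hydrolase gene Ephx1 (-1.53 ± 0.35, adjusted p = 0.00734), Pir (-0.93 ± 0.27) and Aldh1a1 (-1.54 ± 0.45). After CCl4 Cyp1b1 was higher (3.76 ± 0.45) and Ephx1 lower (-1.23 ± 0.35), and the other 17 were not called, beside 22.0% of all tested genes called. Nqo1 was at 7.97 after CCl4 and 6.96 after bile duct ligation. In coculture against culture 2 were higher and 3 lower (15.4% of all tested genes were called), with Txn1 (thioredoxin) up by 0.48 ± 0.08, Akr1b8 up by 1.13 ± 0.28, Cyp1a1 at -4.42 ± 0.82, Aldh1a1 at -3.08 ± 0.57 and Pir at -1.71 ± 0.33. Between the injuries limma called 0 of 19, with 2 at an unadjusted p under 0.05, beside the same 1099.

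**Figure D5:**
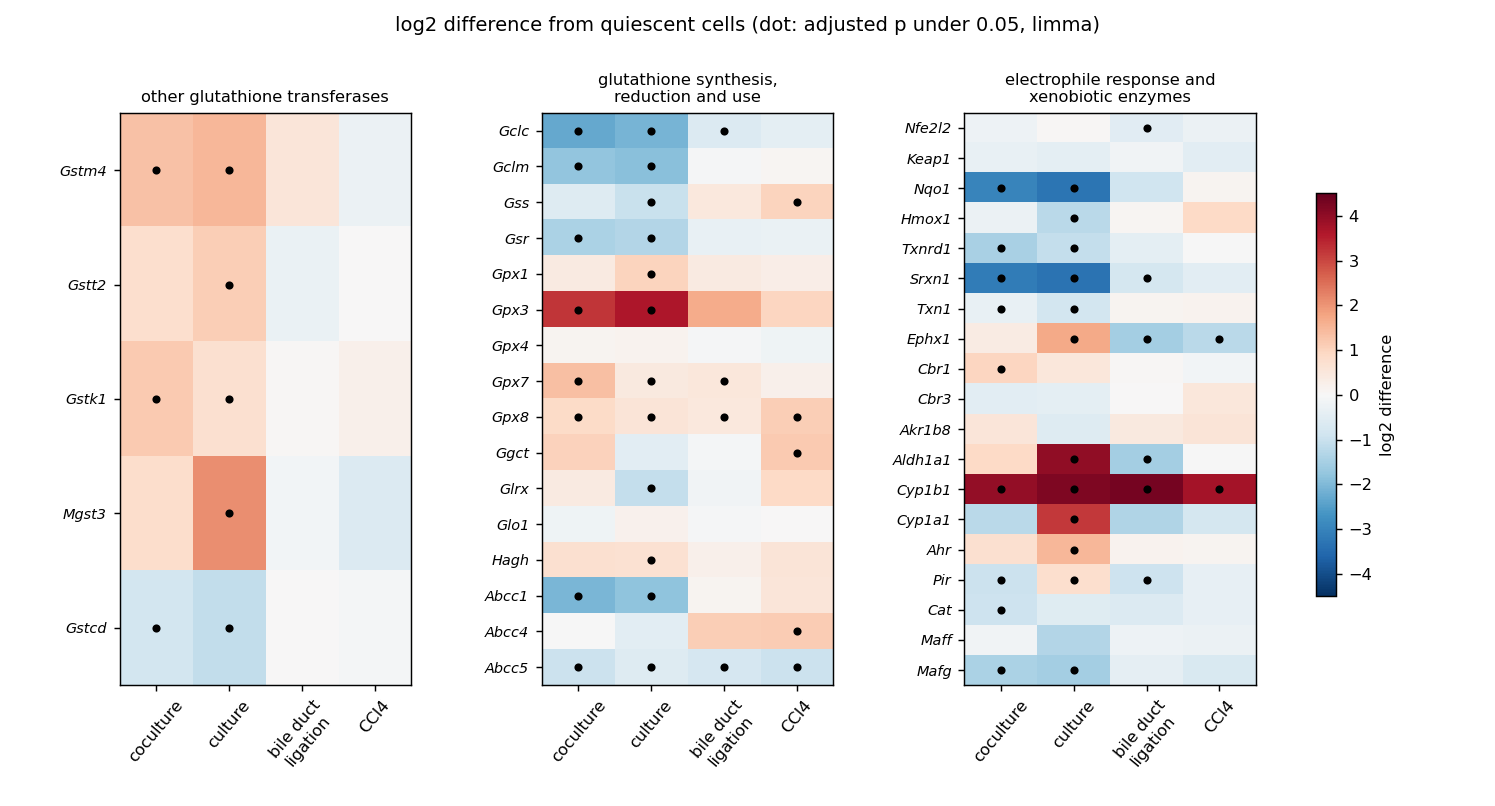
Log2 difference from quiescent cells (colour, red higher and blue lower) of the tested genes of 3 lists (rows) in coculture, culture, bile duct ligation and CCl4 (columns); dots mark an adjusted p under 0.05 in limma. Gclc, Gclm, Abcc1, Nqo1 and Srxn1 are blue with dots in both cultures, and Cyp1b1 is red with dots in all 4 columns.

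Likeness of pattern was measured by Pearson's r over the 16 arrays among the tested genes, as a description only, because the arrays fall into cultured and other samples a division that many genes share. The nearest genes to Gsta2 were Atad3a (0.978), Gpn1 (0.969) and Heatr1 (0.965). To Gsta3 they were Ftsj3 (0.944), Gsta2 (0.937) and Ptgis (0.930). Gstp1 was nearest to Gclc (0.979), Blvrb (0.976), a biliverdin reductase, and Snrnp200 (0.975). Chosen after its value was seen, Gstt1 was nearest to Ephx1 (0.986), another enzyme of xenobiotic metabolism.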

How the data were processed

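Transcript levels were measured on 16 oligonucleotide arrays, with 1 sample each. The authors deposited log2 expression values per probe set, and GCRMA, which corrects background from probe sequence, normalises arrays by quantiles and summarises probes, is named per the submitters' processing notes. No version or setting of GCRMA is given in the sources used here. The table held 45101 probe sets, with values from 0.04 to 13.88. Of these, 34945 had 1 gene symbol in the platform annotation, and 932 with several symbols, 1 of which lists a member, were left out. The 10 genes had 16 single-symbol probe sets in all.

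All tested genes were modelled by their 5 group means with limma 3.58.1 in R 4.3.3 (trended eBayes, two-sided, 7 contrasts, Benjamini-Hochberg over 7823 genes, call at an adjusted p under 0.05). The fit was tested on simulated data for culture against quiescent cells. It recovered 71% of changes of 1 log2 unit and 96% of changes of 2, with 7 false calls. The other comparisons were not examined in this way. The members and lists were chosen with earlier results of these data known. From each list up to 4 genes with the smallest adjusted p per comparison were named, beside markers whose mean reached log2 5 in a group. Gstk1, Nqo1, Cyp1a1, Ephx1 and Pir in culture, Cbr1, Cbr3 and Akr1b8 in the cultures, Akr1b8 in coculture against culture, Nqo1 and Srxn1 after injury, Nfe2l2 and the low markers were named after their values were seen. For pattern likeness the rule took the 3 nearest genes of the 3 members with the largest F. The number of arrays limits the precision, and no depth exists for array data. Alternatives covered the filter, probe set choice, variance model, weights, centring, the samples in the fit and the replicate number as a block.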

Additional observations from a re-analysis of the deposited data

Results flagged for a closer look

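Outlying arrays were sought for each of the 10 genes in the quiescent group, the only group large enough for Dixon's test. In Gstm5, quiescent replicate 4 (8.27) lay far below the other quiescent arrays, which ran from 8.59 to 8.66, with a gap of 0.826 of the whole range against a critical value of 0.71. It was the only one of 10 checks past that value, and chance flags about 1 in 20.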

How the results depend on the processing

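Over 26 other settings, 1811 values of single genes were recomputed. Of these, 1761 stayed on their side of the threshold, 32 lost a call, 18 gained one and 0 reversed with a call. Among the 1761, 29 uncalled values changed sign. With array weights, whose fit gave a convergence warning, the count of the 10 genes called was 5 for CCl4 against quiescent cells and 2 between the injuries. With the compared arrays alone it was 1 for bile duct ligation against quiescent cells and, with 8 of the 10 tested since Gsta2 and Gsta3 fell below the filter, 3 for coculture against culture. It was 3 there also when a trio of arrays (quiescent 4, culture 3, CCl4 3) was left out. Over all tested genes, coculture against culture called 598 with the compared arrays alone, beside 1205. Bile duct ligation against CCl4 called 43 without a filter, 4 with the filter at log2 7, 20 with the mean of all probe sets, 173 with array weights, 32 with the compared arrays alone and 7 without those 3 arrays, beside 13. With the mean of all probe sets Gsta3 was not tested, since its second probe set, near background, pulled that mean below the filter. Centring moved all genes by at most 0.063.

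Leaving out each array in turn gave 6 called of the 10 genes for coculture (1816 to 3123 of all tested genes), 7 to 8 for culture (2571 to 3293), 2 to 3 for bile duct ligation (769 to 1429) and 3 to 5 for CCl4 (869 to 1884), each against quiescent cells. The range was 2 to 5 for coculture against culture (412 to 1399), lowest without culture replicate 3, and 0 between the injuries (3 to 20). It was 8 to 9 for culture against both injuries (3202 to 4149) and 9 to 10 for any difference (4362 to 5037).

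Over all groups the replicate numbers were not shown to pair the samples, since 7 of 26 same-number pairs correlated above 0.1 (range -0.26 to 0.54). The highest were coculture with culture, at 0.54 for replicate 3 and 0.31 for replicate 2. Culture with quiescent (0.28) and coculture with quiescent (0.21) followed, both for replicate 3. Whether such arrays shared a preparation was not tested, and the main fit treats them as unpaired. With the replicate number as a block, 6, 7, 3, 3, 5, 0, 8 and 9 of the 10 genes were called in the same order of comparisons. After bile duct ligation Gstm1 was then called (-0.81, adjusted p = 0.0313) and Gstm5 was not (-0.51, adjusted p = 0.0576). The cause of these changes was not tested. Levels near background limit the differences of Gsta2 and Gsta3 in the cultured cells and of Gsta4 in coculture.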
